A study of Mus musculus with 2 samples.

Results

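The 9 microRNA (miRNA) genes described here form the clusters paralogous to miR-17-92: Mir106b, Mir93 and Mir25 of the miR-106b-25 cluster, and Mir106a, Mir18b, Mir20b, Mir19b-2, Mir92-2 and Mir363 of the miR-106a-363 cluster. They were chosen by name and not by a cutoff of level, though with earlier results of these data known. All 9 were found among the 1973 miRNA genes of the count tables. The tables come from small RNA sequencing of whole kidneys of healthy B6NCrl mouse embryos at 15.5 days. There is 1 group of 2 libraries, each made from a pool of male and female embryos, 78 in replicate 1 and 62 in replicate 2. No genotype, treatment or other tissue was compared, so the data answer how high each member stands and how closely the pools match.

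Both clusters arose by duplication of an ancestral miR-17-92 locus, and their hairpins fall into the same seed families, a seed being the short stretch near the 5′ end of a miRNA that pairs with target messages. The miR-106b-25 hairpins lie within Mcm7, which encodes a subunit of the replicative helicase. The miR-17 seed family is known for repressing the cell-cycle inhibitor Cdkn1a, and miR-25 for repressing the pro-apoptotic gene Bcl2l11. In mice, loss of either paralog cluster alone is tolerated, while loss of miR-106b-25 together with miR-17-92 is lethal to the embryo. In the embryonic kidney miR-17-92 is known for maintaining the proliferation of nephron progenitors.

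The members fall into 4 seed families, shown here with bases 2 to 8 in capitals because the results are grouped by them. Each sequence is the mature arm that carries the family's seed, from RefSeq (GRCm38.p6), which held all 9 members. The miR-17 seed is carried by 4 members, 2 from each cluster.
miR-106b-5p: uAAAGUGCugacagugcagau
miR-93-5p: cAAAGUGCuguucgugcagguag
miR-106a-5p: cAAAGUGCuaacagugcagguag
miR-20b-5p: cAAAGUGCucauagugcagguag
The counterparts of these members in miR-17-92 are miR-17-5p and miR-20a-5p.
miR-17-5p: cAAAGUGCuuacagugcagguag
miR-20a-5p: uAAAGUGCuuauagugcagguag
The miR-18 seed is carried by 1 member, shown with its counterpart miR-18a-5p.
miR-18b-5p: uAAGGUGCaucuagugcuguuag
miR-18a-5p: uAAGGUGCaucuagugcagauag
The miR-19 seed is carried by 1 member and the miR-25/92 seed by 3.
miR-19b-3p (Mir19b-2): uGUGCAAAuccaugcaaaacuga
miR-25-3p: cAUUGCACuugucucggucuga
miR-92a-3p (Mir92-2): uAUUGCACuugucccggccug
miR-363-3p: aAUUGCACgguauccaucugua

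The grouping by seed fixes bases 2 to 8, so the mature sequences differ from their counterparts outside it. In the following, positions are counted from 1 at the 5′ end, and the counterpart's base comes first. A single change, U10A, separates miR-106a-5p from miR-17-5p. The changes U1C and U10C separate miR-20b-5p from miR-20a-5p, and A18U and A20U separate miR-18b-5p from miR-18a-5p. Over the 21 bases shared in length, miR-106b-5p differs from miR-17-5p by C1U, U10G and G20A, and miR-25-3p from miR-92a-3p by U1C, C14U and C18U. The farthest member is miR-363-3p, with 10 of 21 bases identical to miR-92a-3p. The mature arms of Mir19b-2 and Mir92-2 are identical to those of Mir19b-1 and Mir92-1 in miR-17-92.

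In the mm10 (GRCm38) assembly, with GENCODE M21 annotation, the miR-106b-25 cluster lies on the minus strand of chromosome 5 within 498 nt. Mir106b (ENSMUSG00000065514.1, 138165737 to 138165818) is intronic to Mcm7. Mir93 (ENSMUSG00000065527.1, 138165523 to 138165610) and Mir25 (ENSMUSG00000065394.1, 138165321 to 138165404) overlap an exon of a retained-intron transcript of Mcm7. The miR-106a-363 cluster lies on the minus strand of the X chromosome within 875 nt. In the direction of transcription its order is Mir106a (ENSMUSG00000065456.1, 52742503 to 52742567), Mir18b (ENSMUSG00000077111.2, 52742331 to 52742413), Mir20b (ENSMUSG00000076041.1, 52742113 to 52742192), Mir19b-2 (ENSMUSG00000065473.1, 52741983 to 52742066), Mir92-2 (ENSMUSG00000065613.1, 52741838 to 52741928) and Mir363 (ENSMUSG00000070106.1, 52741693 to 52741767). Mir106a overlaps the last exon of the noncoding gene Kis2 by 5 nt, and the other 5 members lie outside any other gene annotated on their strand.

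Levels are given as CPM, the reads on a gene's own strand scaled to 1000000 such reads in the library, or as a percent of them. The libraries held 7434182 (replicate 1) and 5863293 (replicate 2) such reads, of which 133203 and 100028 fell in the 9 members. Each count covers a whole hairpin, so its arms are not told apart. Where no read was counted, up to 3 counts were taken as possible, which is 0.404 and 0.512 CPM. The exact interval of a gene with 0 reads reaches somewhat higher, to 0.496 and 0.629 CPM. This floor and all intervals below (95%, exact Clopper-Pearson) cover counting error only. Levels were not divided by length, since reads were kept under 30 nt and the mature arms of the members are 21 to 23 nt long. The markers listed for kidney epithelium (miR-200 and miR-30 genes) were present with reads in both libraries for 8 of 8 genes, at 5.21% and 5.97% of reads. The list for the Hox domain (Mir10a, Mir10b and Mir196b) held 25.9% and 22.3%. Of the markers of other cell types, endothelial Mir126a held 4.97% and 4.78%, and the 2 smooth muscle genes 2.50% and 2.94%. The erythroid list held 0.0339% and 0.0466%, the leukocyte list 0.0619% and 0.0700%, hepatocyte Mir122 0.0319% and 0.0628%, endocrine Mir375 0.124% and 0.168%, and striated muscle 0.0959% and 0.0659%, with Mir1a-1 and Mir133a-1 at 0. The neural marker Mir124a-1 was at 0 in both, and the other one listed, Mir9-1, was not found by name among the genes. Outside the list, Mir9-2 was at 0 in both, while Mir9-3 had 19 and 6 reads. The mature arms of Mir1a-1, Mir133a-1 and Mir124a-1 are known to be encoded at more than one locus. Reads that match several loci are kept without a gene in these files, so a count of 0 for these genes does not show that such cells were absent. The part of these other cell types in the levels below was not tested.

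The miR-106b-25 cluster was the more abundant of the paralog clusters, and Mir93 and Mir106b supplied nearly all of it. The cluster held 1.70% of reads in replicate 1 and 1.62% in replicate 2, a mean of 1.66% ± 0.0593 (SD, n = 2), which ranked it 10 among 104 groups of miRNA genes that lie within 10 kb of each other on 1 strand. With the reads that match several loci added to the library total, the share was 1.08%, and every level below falls by a like factor. Mir93, which carries the miR-17 seed, stood at 9707 and 9550.1 CPM (72162 and 55995 reads). Mir106b, of the same seed family, stood at 6778 and 6104 CPM (50392 and 35789 reads). Mir93 exceeded Mir106b in both libraries, by 1.43 times (1.42 to 1.45) and 1.56 times (1.54 to 1.59). Mir25, of the miR-25/92 seed family, was far below both at 540.1 and 533 CPM (4015 and 3127 reads). It made up 3.23% ± 0.0866 of the cluster's reads, against 58.0% ± 1.40 for Mir93 and 38.8% ± 1.49 for Mir106b (SD, n = 2 each). In whole organs, fewer cells carrying a miRNA and less of it per cell cannot be told apart.

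The 6 genes of the miR-106a-363 cluster were all detected in both libraries but at low levels, and together they held 0.0892% of reads in replicate 1 and 0.0873% in replicate 2, a mean of 0.0883% ± 0.00139 (SD, n = 2), or 0.0574% with several-loci reads in the total. This put the cluster at rank 31 of the 104. In assigned reads, miR-106b-25 exceeded it by 19.1 times (18.6 to 19.6) in replicate 1 and 18.5 times (18.0 to 19.1) in replicate 2. Reads that match several loci were kept without a gene, and the mature arms of Mir92-2 and Mir19b-2 are shared with miR-17-92 genes. The share of miR-106a-363 can therefore be too low and this ratio too high. Mir106a, of the miR-17 seed family, was the highest member of miR-106a-363 at 332 and 335 CPM (2469 and 1967 reads). Mir363, of the miR-25/92 seed family, stood at 222 and 172 CPM (1648 and 1008 reads). Mir20b, of the miR-17 seed family, stood at 189 and 187 CPM (1408 and 1099 reads). These 3 genes supplied 37.8% ± 0.865, 22.3% ± 3.64 and 21.4% ± 0.179 of the cluster (SD, n = 2 each). Mir92-2, of the miR-25/92 seed family, stood at 123 and 151 CPM (918 and 886 reads). Mir18b was lower at 21.0 and 20.3 CPM (156 and 119 reads), and Mir19b-2 lowest at 4.71 (3.28 to 6.55) and 6.48 (4.59 to 8.90) CPM, from 35 and 38 reads. On the CPM scale the pools lay close together for Mir106a, Mir20b and Mir18b, and farther apart for Mir363, which was lower in replicate 2, and Mir92-2, which was higher there. This order holds for CPM only: with DESeq2 size factors the log2 ratio of replicate 2 over replicate 1 was 0.13 for Mir92-2, -0.15 for Mir106a, -0.18 for Mir20b and -0.21 for Mir18b, and still farthest from 0 for Mir363 at -0.53.

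**Figure D1:**
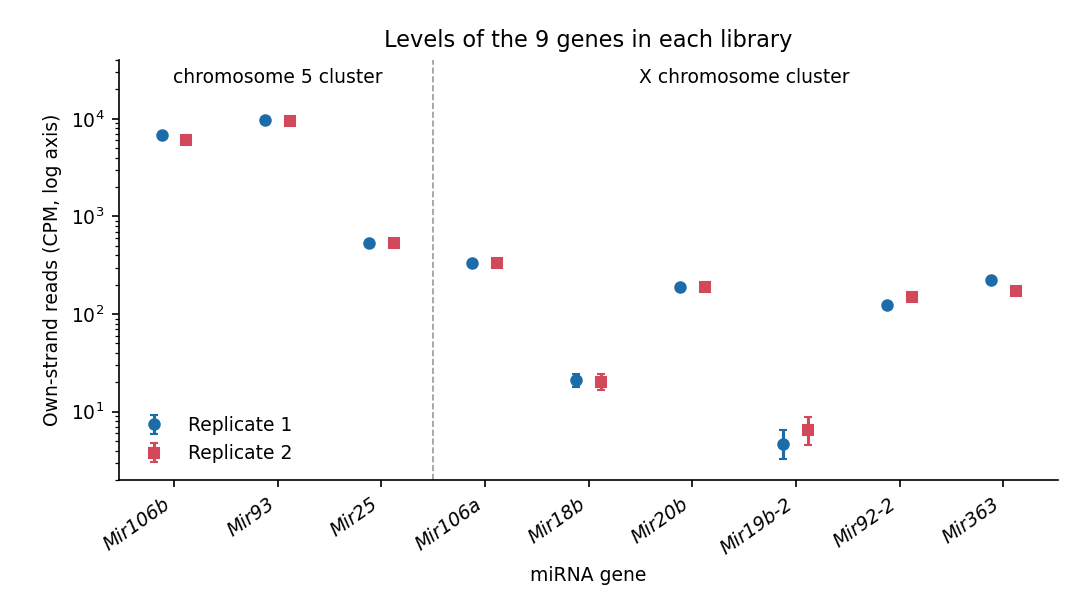
Level of each of the 9 genes (own-strand CPM, log axis) in replicate 1 (circles) and replicate 2 (squares), with bars for the 95% exact binomial interval, which are smaller than the symbols where they cannot be seen. The chromosome 5 genes lie between 533 and 9707 CPM, and the X chromosome genes between 4.71 and 335 CPM.

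Over the 9 genes the order of mean levels was Mir93 (9628 ± 111 CPM, rank 21 of all genes), Mir106b (6441 ± 477, rank 28), Mir25 (537 ± 4.78, rank 100), Mir106a (334 ± 2.38, rank 124), Mir363 (197 ± 35.2, rank 142), Mir20b (188 ± 1.38, rank 143), Mir92-2 (137 ± 19.5, rank 164), Mir18b (20.6 ± 0.487, rank 244) and Mir19b-2 (5.59 ± 1.25, rank 306; CPM, SD, n = 2 each). Of the 8 neighbouring pairs in this order, 7 did not overlap between the libraries. The exception was Mir363 and Mir20b, with Mir363 the higher by 1.17 times in replicate 1 and at 0.917 of Mir20b in replicate 2. In assigned reads, every gene of the chromosome 5 cluster stood above every gene of the X chromosome cluster in both libraries. The mature arms of Mir92-2 and Mir19b-2 are shared with other genes, and reads that match several loci were kept without a gene. The levels of Mir92-2 and Mir19b-2 can therefore be too low, and their places in this order hold for assigned reads only. The genes of each pair were read in the same 2 libraries, and an exact two-sided paired permutation test over 2 libraries cannot give a p under 0.5, so no test of these differences was made.

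The levels within a cluster were unequal although its hairpins lie close together on 1 strand. On chromosome 5, Mir93 begins 208 nt and Mir25 414 nt after the start of Mir106b, and Mir93 exceeded Mir25 by 18.0 and 17.9 times. On the X chromosome, Mir106a exceeded Mir18b, which begins 154 nt after it, by 15.8 times (13.5 to 18.7) and 16.5 times (13.7 to 20.1). In assigned reads, Mir106a also exceeded Mir19b-2, 501 nt after its start, by 70.5 times (50.6 to 102) and 51.8 times (37.6 to 73.4). Mir363, the last hairpin at 800 nt, was nonetheless above Mir18b, Mir19b-2 and Mir92-2, which lie between. The mature arms of Mir19b-2 and Mir92-2 are identical to those of Mir19b-1 and Mir92-1. Reads that match several loci were kept without a gene. The levels of Mir19b-2 and Mir92-2 can therefore be too low, and the ratio of Mir106a to Mir19b-2 too high. Mir106a, Mir18b and Mir363 share no stretch of 20 nt with another miRNA gene. Levels thus did not follow the order of the hairpins in either cluster.

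**Figure D2:**
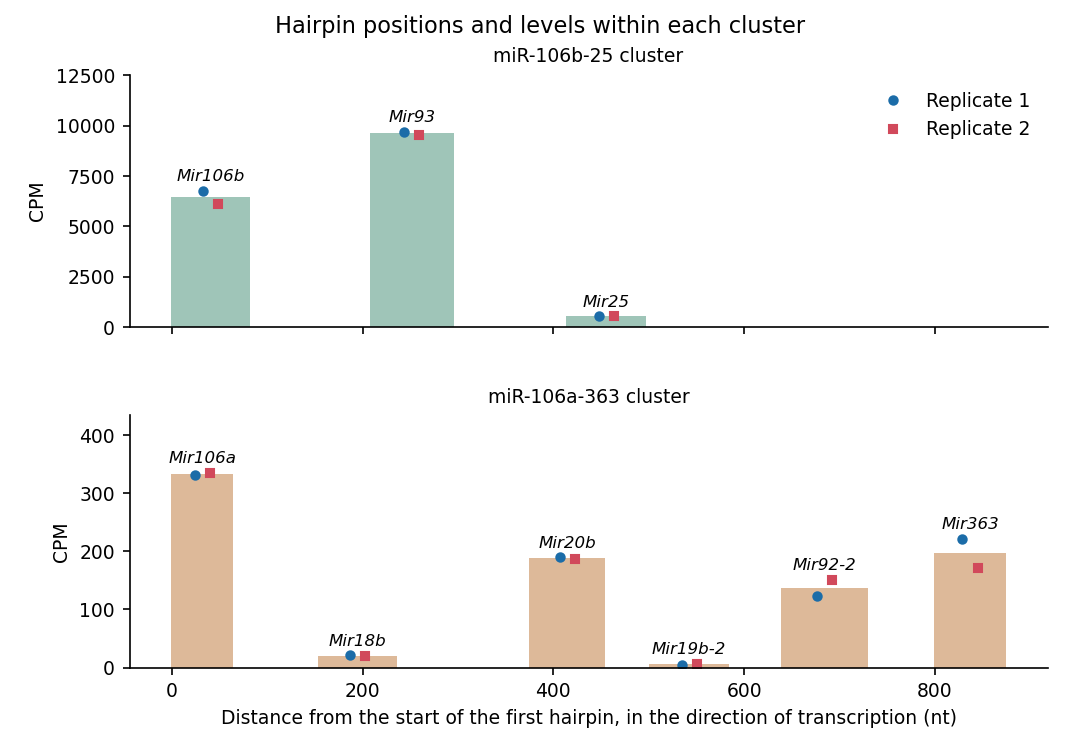
Position of each hairpin (bar width, nt from the start of the first hairpin in the direction of transcription) and its level (bar height, mean CPM of 2 libraries, with circles for replicate 1 and squares for replicate 2). The axes of level differ between panels: the tallest bar is Mir93 at 9628 CPM in the miR-106b-25 cluster and Mir106a at 334 CPM in the miR-106a-363 cluster.

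The miR-17-92 cluster stood above both paralogs, by 2.62 and 2.75 times over miR-106b-25 and by 50.1 and 51.1 times over miR-106a-363. The gap differed from gene to gene. Mir20a, at 9976 and 9173 CPM, stood at 1.03 times the level of Mir93 in replicate 1 (1.02 to 1.04) and at 0.961 in replicate 2 (0.949 to 0.972), so the order of this pair turned between the libraries. Mir17 exceeded Mir106b by 4.14 and 4.61 times, and Mir92-1 exceeded Mir25 by 5.73 and 6.70 times. The chromosome 5 genes thus lay from level with to several times below their counterparts as paired here. By sequence, miR-93-5p had 19 of 23 bases identical to miR-20a-5p and to miR-17-5p alike. Mir17, at 28081 and 28169 CPM, stood above Mir93 in both libraries. Likewise, miR-106b-5p had 18 of 21 bases identical to both.

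Of the X chromosome genes, 5 lay between 14.0 and 178 times below their counterparts, and Mir19b-2 lay nearer. Mir17 exceeded Mir106a by 84.6 times (81.3 to 88.0) and 84.0 times (80.3 to 87.8), although their mature arms differ by 1 base. Whether reads of Mir17 with an error at that base were counted for Mir106a was not tested. Mir20a exceeded Mir20b by 52.7 and 48.9 times, and Mir18 exceeded Mir18b by 164 times (140.0 to 193) and 178 times (148 to 215). Mir92-1 exceeded Mir363 by 14.0 and 20.8 times. For the pairs with identical mature arms the counts gave 25.1 and 23.6 times for Mir92-1 over Mir92-2, and 3.63 times (2.48 to 5.44) and 2.21 times (1.49 to 3.33) for Mir19b-1 over Mir19b-2. All these ratios were above 1 in both libraries.

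**Figure D3:**
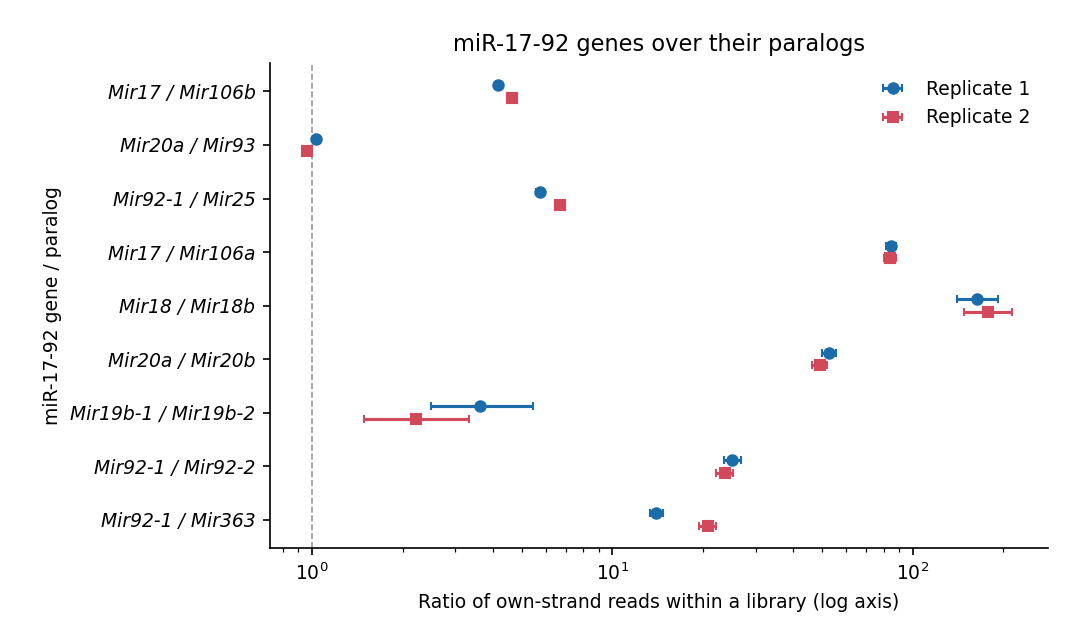
Reads of each miR-17-92 gene divided by the reads of its paralog in the same library (log axis), for replicate 1 (circles) and replicate 2 (squares), with 95% exact binomial intervals and a dashed line at 1. The pairs run from about level, 1.03 and 0.961 for Mir20a over Mir93, to 164 and 178 for Mir18 over Mir18b.

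The counts of the pairs with identical mature arms carry a further limit, which the hairpins show. The hairpins below are from RefSeq (GRCm38.p6), with the longest stretch that both members of a pair share in capitals. It is 22 nt for the miR-92a pair and 25 nt for the miR-19b pair, and it ends in both at the last base of the mature arm.
Mir92-2 (chromosome X, minus strand): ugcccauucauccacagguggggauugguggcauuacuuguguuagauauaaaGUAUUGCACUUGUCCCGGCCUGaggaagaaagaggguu
Mir92-1 (chromosome 14, plus strand): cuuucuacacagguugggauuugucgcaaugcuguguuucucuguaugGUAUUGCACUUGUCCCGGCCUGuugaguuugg
Mir19b-2 (chromosome X, minus strand): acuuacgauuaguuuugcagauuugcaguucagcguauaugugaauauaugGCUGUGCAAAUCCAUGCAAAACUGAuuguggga
Mir19b-1 (chromosome 14, plus strand): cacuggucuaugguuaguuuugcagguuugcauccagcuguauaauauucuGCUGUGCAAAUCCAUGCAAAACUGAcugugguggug
A read copied without change from within the capitals matches both hairpins of a pair, and the files keep reads that match several loci apart, without a gene. There were 3901906 and 3222867 such reads, or 0.525 and 0.550 per own-strand gene read. The levels of Mir92-2 and Mir19b-2, and of Mir92-1 and Mir19b-1, can therefore be too low. Every ratio or share that includes any of these genes is that of the reads that were assigned. How many of the set-apart reads belong to these genes was not tested. None of the other 7 members has a run of 20 nt in common with another miRNA gene. The longest such stretch among them is 17 nt, between Mir18b and Mir18.

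Summed by seed family, the paralog clusters supplied their largest part in the miR-17 seed family. The reads of a family are the whole-hairpin counts of its genes, not reads seen to carry the seed. Its 6 genes held 5.51% and 5.35% of all reads, and Mir93 and Mir106b supplied 29.9% (29.8 to 30.1) and 29.2% (29.1 to 29.4) of the family. Mir106a and Mir20b added 0.947% and 0.977% of it, and Mir17 and Mir20a held the remaining 69.1% and 69.8%. Mir6383, which RefSeq lists with the same seed, had 0 reads in both libraries.

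In the miR-25/92 seed family, 0.434% and 0.477% of all reads, the paralog clusters held a smaller part. Mir25 supplied 12.4% (12.1 to 12.8) and 11.2% (10.8 to 11.6) of it. Mir92-2 and Mir363 together supplied 7.95% and 6.77%, and Mir92-1 supplied 71.4% and 74.8%. Genes outside the clusters held 8.23% and 7.22%. These were Mir32, at 205 and 167 CPM, and Mir92b, at 152 and 178 CPM, while Mir367 was at 0. These levels overlap the range of Mir92-2 and Mir363, which lay between 123 and 222 CPM. The shares of this family rest on the reads that were assigned. Reads of the miR-92a arm that Mir92-1 and Mir92-2 have in common can be missing from them.

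The miR-17-92 genes held 99.4% of the reads of the miR-18 seed family's genes in both libraries. They held 93.8% and 89.4% of those of the miR-19 seed family. Mir18b held 0.607% (0.515 to 0.709) and 0.560% (0.464 to 0.670) of the reads of the miR-18 seed family. The miR-19 seed family held 564 and 357 reads in all, or 0.00759% and 0.00609% of reads, and Mir19b-2 supplied 6.21% (4.36 to 8.53) and 10.6% (7.64 to 14.3) of them. These miR-19 shares rest on the reads that were assigned to Mir19b-2 and Mir19b-1, whose mature arms are identical. Which part of the hairpin those reads came from was not tested. Mir19a, whose mature arm differs from miR-19b-3p by 1 base (C11U), was itself low at 54.1 and 40.1 CPM, and its hairpin shares no stretch of 20 nt with another miRNA gene.

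**Figure D4:**
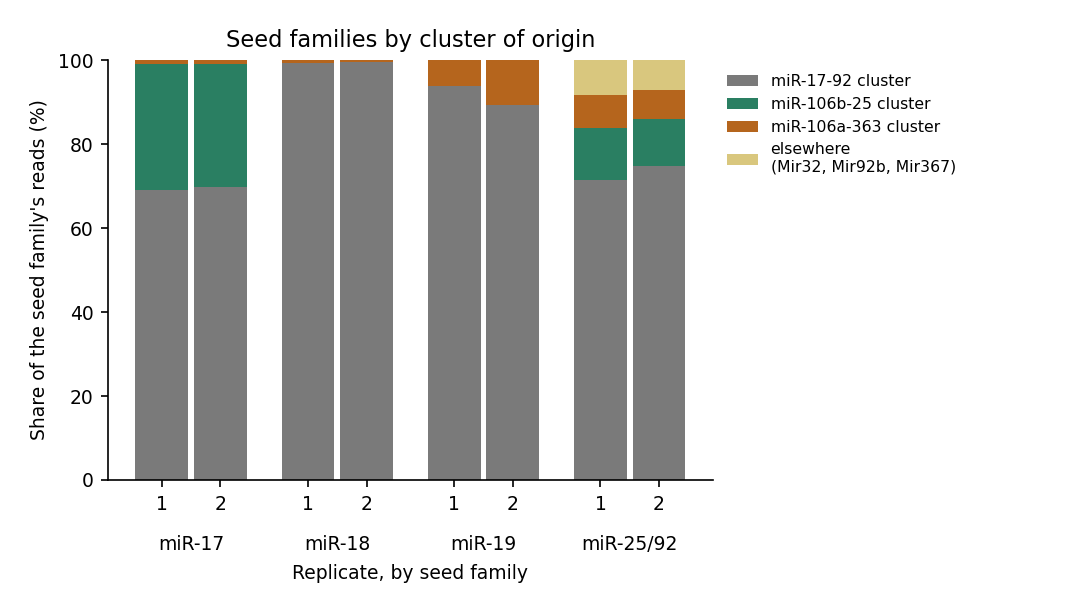
Share of each seed family's assigned reads (%) that came from the miR-17-92, miR-106b-25 and miR-106a-363 clusters and from genes elsewhere, in replicate 1 and replicate 2. The miR-106b-25 cluster supplies 29.9% and 29.2% of the miR-17 seed family, and the miR-106a-363 cluster stays at 10.6% or less in each of the 4 families.

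The level of each of the 9 members in replicate 2 lay within 2-fold of that in replicate 1. All 9 had a mean count of 10 or more and entered a two-sided exact binomial test of the read counts given the library totals, with Benjamini-Hochberg adjustment over all 378 genes tested. The test compares these libraries, not conditions. No member (0 of 9) passed an adjusted p of 0.05 with a fold of at least 2, against 6.08% of all genes tested. Without the fold, 4 of 9 members passed (4 at an unadjusted p under 0.05, against 59.8% of all genes). The share passing was 55.8% of all genes, 40.2% higher and 15.6% lower in replicate 2. Of those 4 members 3 were lower in replicate 2. Mir106b was lower by a log2 ratio of -0.15 (-0.17 to -0.13, adjusted p = 2.44e-51), Mir363 by -0.37 (-0.48 to -0.25, adjusted p = 5.27e-10) and Mir93 by -0.023 (-0.039 to -0.0075, adjusted p = 0.00769), all by the exact binomial test. Mir92-2 was higher in replicate 2 at a log2 ratio of 0.29 (0.16 to 0.43, exact binomial test, adjusted p = 4.9e-05). Its adjusted p was 0.0889 with DESeq2 size factors, so this call rests on the scaling.

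The other 5 members did not pass in CPM. Their log2 ratios were -0.018 (-0.086 to 0.050) for Mir25, 0.015 (-0.072 to 0.10) for Mir106a, -0.048 (-0.40 to 0.31) for Mir18b, -0.015 (-0.13 to 0.100) for Mir20b and 0.46 (-0.24 to 1.17) for Mir19b-2. At 35 and 38 reads, the interval of Mir19b-2 reaches past 2-fold, so a difference of that size is not excluded. The median absolute log2 ratio was 0.048 over the 9 members and 0.28 over all genes tested in CPM, 0.16 and 0.28 with TMM (edgeR), and 0.18 and 0.28 with DESeq2 size factors. These scalings move all values: TMM shifts every log2 ratio by -0.13 and DESeq2 size factors by -0.16, under which 7 and 6 of 9 members passed without the fold, against 58.2% and 59.0% of all genes, and 0 with it. Mir106a was then lower, not higher, in replicate 2. Mir25, Mir106a and Mir20b, which did not pass in CPM, passed under both scalings, so these calls also rest on the scaling. By the exact binomial test their adjusted p was 5.38e-05, 0.0175 and 0.0254 with TMM. With DESeq2 size factors it was 6.16e-07, 0.00187 and 0.00544.

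**Figure D5:**
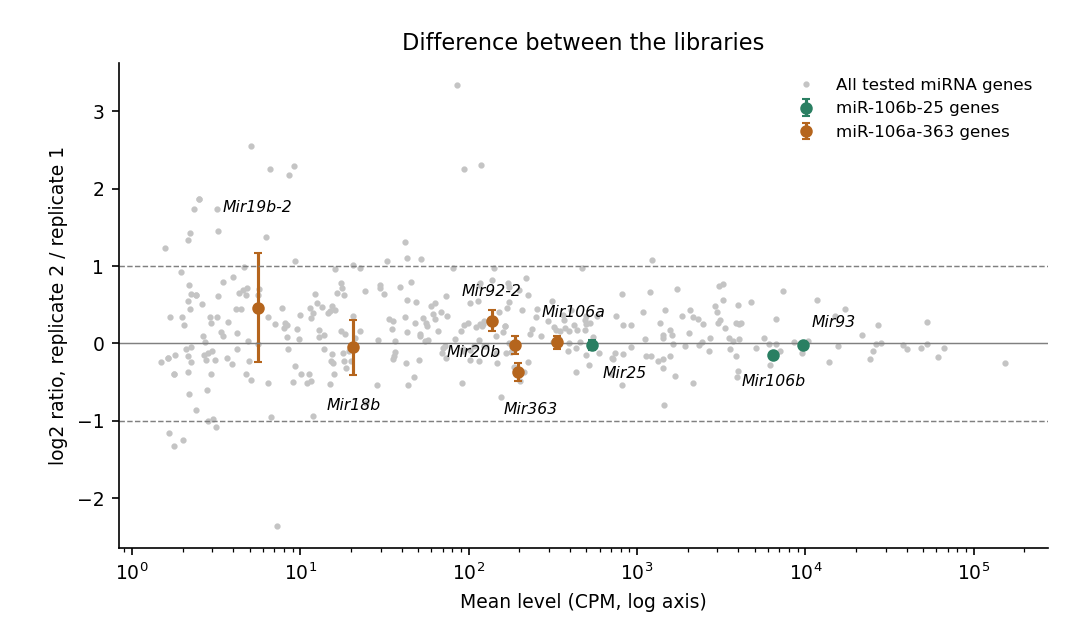
Mean level (CPM, log axis) against the log2 ratio of replicate 2 over replicate 1 for the 378 tested miRNA genes (grey), with the members in colour and their 95% exact binomial intervals. Dashed lines mark 2-fold; all 9 members lie between them, from -0.37 for Mir363 to 0.46 for Mir19b-2, and only the interval of Mir19b-2 crosses a line.

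Set beside the rest of their seed families, the members gave the following log2 ratios, whose differences were not tested. Mir92-2 and Mir92-1, with identical mature arms, both had higher CPM in replicate 2, at log2 ratios of 0.29 and 0.21, and Mir92b stood at 0.23. Mir363 and Mir32, of the same seed, stood at -0.37 and -0.30, and Mir25 at -0.018. Mir19b-2 and Mir19b-1, the other pair with identical arms, lay on opposite sides at 0.46 and -0.25, neither of which passed, with Mir19a at -0.43. Mir18b stood at -0.048 and Mir18 at 0.069. In the miR-17 seed family Mir106b and Mir20a stood at -0.15 and -0.12, while Mir93, Mir106a, Mir20b and Mir17 lay between -0.023 and 0.015.

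With 1 group there is no pattern across conditions to compare, so genes were set beside the members by level alone. The genes nearest in mean log2(CPM + 1) to Mir93 were Mir20a, at a distance of 0.0093, and Mir23a, at 0.10, with 9575 ± 568 and 10353 ± 140 CPM (SD, n = 2 each). Those nearest to Mir106a were Mir669l and Mir16-2, at 331 ± 28.4 and 339 ± 3.25 CPM, and at distances of 0.013 and 0.022.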

How the data were processed

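The authors deposited raw read counts per miRNA gene and library in 3 columns: either strand, the gene's strand and the reverse. The build was mm10 and the annotation GENCODE M4, per the deposited notes. The sources used here do not give the aligner or the counting program. Counts on the gene's strand were used, since the members had 1 and 0 reads on the reverse, and lines of reads outside genes were kept out of library totals. Gene names came from GENCODE M21 by identifier (1894 of 1973 genes), and mature and hairpin sequences from RefSeq.

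With 1 group there was no contrast for edgeR's quasi-likelihood test. The library test was the exact binomial test described in the text, tried on simulated data first. The simulated counts held counting error only, so the trial does not show how the test behaves with further spread between pools. TMM factors (edgeR 4.0.16) and size factors (DESeq2 1.42.0), in R 4.3.3, served as other scalings. Python 3.11.15 and scipy 1.17.1 were used for the rest. Named are the 9 members, the miR-17-92 genes, every gene sharing a member's seed, and the 2 genes nearest in level to each cluster's highest member. The members and lists were chosen with earlier results of these data known.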

Additional observations from a re-analysis of the deposited data

How the results depend on the processing

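Against the values given above, the share of the miR-106b-25 cluster was 1.96% with the most abundant miRNA gene left out of the total and 1.08% with reads matching several loci added to it. That of the miR-106a-363 cluster was 0.104% and 0.0574% under these totals, 0.0863% with both strands counted and 0.0740% without Mir19b-2 and Mir92-2, which raised the ratio of the clusters to 22.5. Leaving these genes out does not restore their reads that match several loci, so it does not bound how far the ratio is too high. Leaving out each replicate in turn gave 1.62% to 1.70%, 0.0873% to 0.0892% and a ratio of 18.5 to 19.1. The count of members differing between the libraries was 4 without the fold, 7 and 6 without it under TMM and DESeq2 size factors (added after the data were seen), and 0 under the other 7 alternatives, which keep a fold of at least 1.5. Of 45 member log2 ratios under other scalings, strands and pseudocounts (1 and 0.5 CPM), 2 changed sign: Mir106a at -0.11 with TMM and -0.15 with DESeq2 size factors. The 7 separate neighbours in the order of levels were also 7 under TMM, DESeq2 size factors and both strands, alternatives added after the data were seen. These alternatives do not restore reads that match several loci either. No paired analysis was possible because there is 1 group. A model of the spread between replicates was not run, since each side of the library comparison holds 1 library. Depth limits Mir19b-2 most, at 35 and 38 reads.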

Other observations

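The base composition of the mature arms was set beside the difference between the pools, a relation that was chosen after the values were seen. Of the genes of the 3 clusters and their seed families that passed without the fold, those higher in replicate 2 were Mir92b, Mir92-2, Mir92-1 and Mir18, with arms of 63.6%, 57.1%, 57.1% and 43.5% GC. Those lower in replicate 2 were Mir32, Mir19a, Mir20a, Mir363, Mir106b and Mir93, with arms of 31.8%, 34.8%, 39.1%, 40.9%, 42.9% and 52.2% GC, so the ranges overlap. Over the 17 genes of the 3 clusters and their seed families with reads, the log2 ratio between libraries and the GC of the arm had a Spearman's rho of 0.65 and a Pearson's r of 0.62. Over the 13 of them that share no stretch of 20 nt with another gene these were 0.77 and 0.84, and over the hairpin GC of all 17 they were 0.21 and 0.18. Over the 9 members alone these were 0.24 and 0.20, and over the hairpin GC of all 378 tested genes 0.12 and 0.18. The genes share the same 2 libraries and much of their sequence, so these are descriptions, and the part of base composition in the ratios was not tested.

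The predicted folding energy of the hairpins (ViennaRNA 2.7.2) did not rank all 9 members by level. The highest member, Mir93, had the lowest energy, -46.3 kcal/mol, but Mir19b-2, the lowest in level, stood at -40.8 kcal/mol, close to Mir106b at -41.0 kcal/mol. Mir106a, Mir18b and Mir363 had the weakest folds, at -22.8, -22.6 and -23.6 kcal/mol. The levels of Mir19b-2 and of Mir92-2, at -41.4 kcal/mol, can be too low because their mature arms are shared. Among the other members, Mir93, Mir106b and Mir25 (-35.9 kcal/mol) came first in level and in energy, in that order. Mir18b came last in both, while Mir20b (-35.5 kcal/mol) stood below Mir106a and Mir363 in level. The hairpins run from 65 nt (Mir106a) to 91 nt (Mir92-2), and the energies were not scaled to length. These are descriptions, and the part of folding energy in the levels was not tested.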
